A study of Mus musculus with 8 samples.

Results

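The CC chemokine clusters on mouse chromosome 11 were followed through 8 lists of chromatin peaks from bone marrow-derived macrophages. The members are Ccl2, Ccl7 and Ccl12 in a window of 200 kb (chr11:81800000-82000000, build mm8, as are all peak coordinates) and Ccl5, Ccl9, Ccl6, Ccl3 and Ccl4 in a window of 250 kb (chr11:83300000-83550000). The windows were selected by position with earlier results of these data known, among them Pol II and H3K4me3 peaks near chr11:83341376-83346967 that were listed after stimulation and not before. What follows is therefore a description with no test. Every listed position or cluster inside the windows was taken: 299 of 364537 in the whole series, 124 in the Ccl2 window and 175 in the Ccl5 window.

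Chromatin immunoprecipitation with sequencing was done on macrophages grown from the marrow of female Fvb mice aged 6 to 8 weeks. Cells were untreated (0 h) or were given lipopolysaccharide, a bacterial cell wall component, together with interferon gamma, a cytokine that activates macrophages. RNA polymerase II (Pol II) was mapped at 0, 2 and 4 h, the promoter mark H3K4me3 and the Polycomb mark H3K27me3 at 0 and 4 h, and Jmjd3, the demethylase that removes H3K27me3, at 2 h. Each of the 8 combinations was 1 library, so no difference between times has a replicate check. The labels do not say how many animals were pooled, and they describe no genetic change in these cells. Their growth protocol also mentions fetal livers, but all 8 libraries are labelled as bone marrow-derived macrophages.

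Chemokines are small secreted proteins that draw leukocytes along a gradient, and the CC family is named for a pair of adjacent cysteines near the start of the mature protein. Ccl2, Ccl7 and Ccl12 bind the receptor CCR2 and attract monocytes. Ccl3, Ccl4 and Ccl5 attract monocytes and T cells. Ccl6 and Ccl9 are rodent chemokines that act through CCR1. Macrophages that meet bacterial products are a known source of Ccl2, Ccl3, Ccl4 and Ccl5.

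The value at each peak is the overlap count that the authors deposited, called its height here. Heights are not scaled to depth, which is known only as over 10000000 mapped tags per library per the labels. The lowest height was 9 to 11 in the 8 lists, and whole-list medians in order of time were 14, 17 and 19 (Pol II), 78 and 97 (H3K4me3) and 12 and 13 (H3K27me3), with 10 for Jmjd3. In the 17635 bins of 10 kb over the genome with Pol II at 0 and 2 h, the ratio of the tallest position at 2 h to that at 0 h had a median of 1.56, or 0.64 on the log2 scale. For 4 h over 0 h this median was 1.48, or 0.56 on the log2 scale, over 18008 bins. A Pol II ratio of a bin is therefore read against these medians, not against equality.

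Gene positions on mm8 were not used, so a peak is given to a window and not to a gene. In the RefSeq order (GRCm38.p6), the first cluster runs Ccl2, Ccl7, Ccl11, Ccl12, Ccl8 and Ccl1, and the second Ccl5, Ccl9, Ccl6, Ccl3 and Ccl4. Ccl11, Ccl8 and Ccl1 are no members here. RefSeq promoter sequences were at hand for 4 of the 8 members, and the 250 bases before the start of each are shown because these loci lie in the windows where Pol II was followed. They are on GRCm38.p6 (chr11:82101595-82101844, plus strand for Ccl12, chr11:83578637-83578886, minus strand for Ccl9, chr11:83593088-83593337, minus strand for Ccl6 and chr11:83649379-83649628, minus strand for Ccl3), another build than the peaks, and no peak was placed on them. They read 5′ to 3′ on the strand of the gene, and capitals mark matches to the 5 motifs searched.
Ccl12: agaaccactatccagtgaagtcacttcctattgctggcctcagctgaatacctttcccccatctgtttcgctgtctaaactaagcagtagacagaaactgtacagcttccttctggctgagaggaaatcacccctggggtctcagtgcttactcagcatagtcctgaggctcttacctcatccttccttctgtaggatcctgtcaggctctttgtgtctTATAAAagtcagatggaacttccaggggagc
Ccl9: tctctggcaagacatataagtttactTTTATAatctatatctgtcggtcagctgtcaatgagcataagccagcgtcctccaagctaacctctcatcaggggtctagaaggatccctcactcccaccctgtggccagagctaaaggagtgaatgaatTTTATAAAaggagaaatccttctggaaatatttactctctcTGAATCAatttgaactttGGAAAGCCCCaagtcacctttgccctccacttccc
Ccl6: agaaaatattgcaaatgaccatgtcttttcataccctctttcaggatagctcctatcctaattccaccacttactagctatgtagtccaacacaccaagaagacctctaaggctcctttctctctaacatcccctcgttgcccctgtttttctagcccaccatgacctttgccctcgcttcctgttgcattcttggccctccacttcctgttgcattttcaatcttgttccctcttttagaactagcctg
Ccl3: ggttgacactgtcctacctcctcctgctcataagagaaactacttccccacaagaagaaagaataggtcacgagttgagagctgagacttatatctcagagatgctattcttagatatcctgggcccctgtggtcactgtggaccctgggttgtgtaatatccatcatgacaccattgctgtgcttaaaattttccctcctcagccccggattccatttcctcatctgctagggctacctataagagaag

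The motifs were the kappa-B motif bound by NF-kappa-B, the interferon-stimulated response motif (GAAA repeated after 2 free bases), the STAT motif TTCNNNGAA, the AP-1 motif TGANTCA and the TATA motif TATAAA, each on both strands. Ccl12 held 1 TATA match, 31 to 26 bases before the start. Ccl9 held a kappa-B match, written GGAAAGCCCC on the strand shown, 35 to 26 bases before the start, and an AP-1 match, TGAATCA, 53 to 47 bases before it. It also held 3 TATA matches, 2 of which overlap each other. These letters are absent from the windows of Ccl6 and Ccl3. Among 32851 RefSeq promoters cut the same way, 7.25% hold the kappa-B motif, 2.98% the interferon-stimulated response motif, 7.02% TTCNNNGAA, 6.75% TGANTCA and 12.4% TATAAA.

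The window with Ccl5, Ccl9, Ccl6, Ccl3 and Ccl4 held 37 Pol II positions in untreated cells, 52 at 2 h and 48 at 4 h. Their heights ran from 9 to 224 before stimulation (median 27), from 10 to 387 at 2 h (median 36.5) and from 13 to 374 at 4 h (median 42.5). The positions lay in separate groups along the window, and these groups did not move together. A stretch near the start of the window had Pol II after stimulation and none before. Another in the middle had Pol II before and none after. The tallest positions of untreated cells were taller at 2 and 4 h as deposited.

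**Figure D1:**
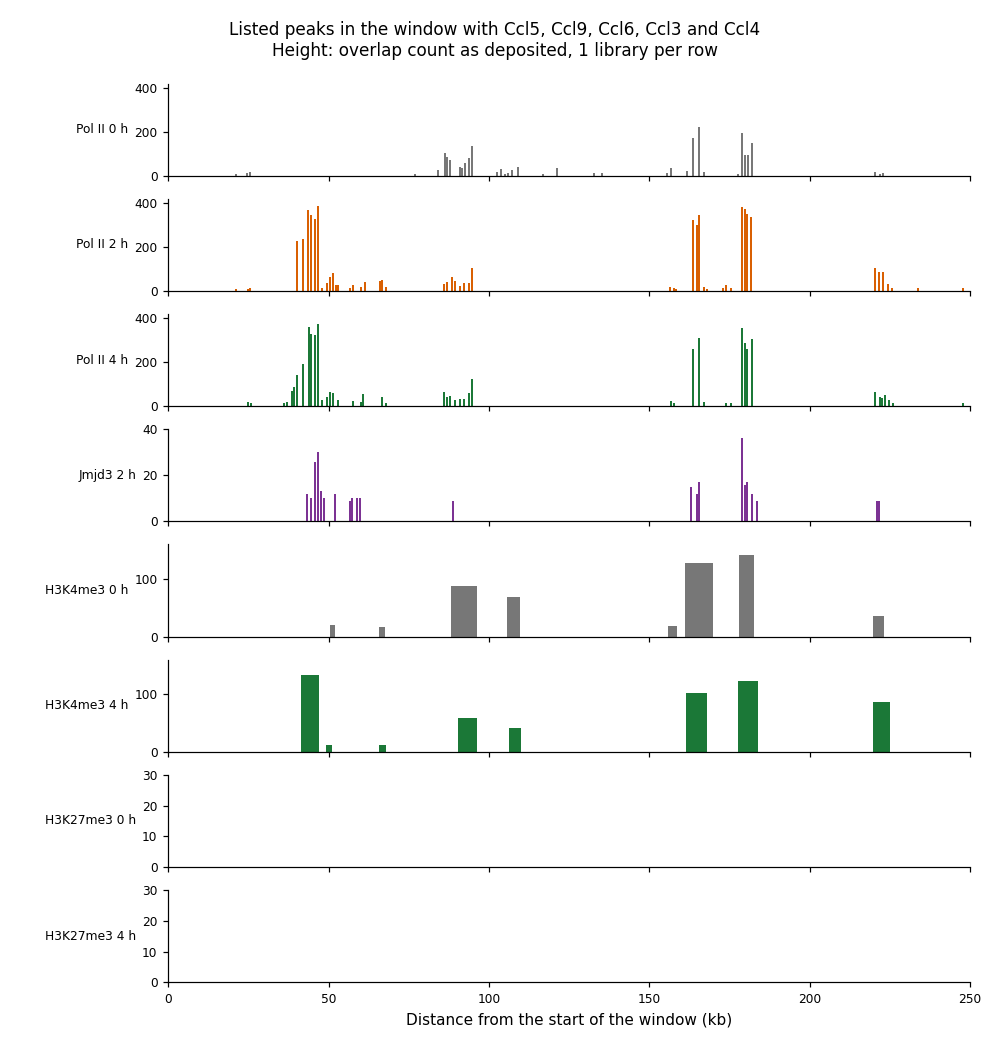
Height (overlap count as deposited, vertical axis) of every listed peak against distance in kb from the start of the Ccl5 window, 1 row per list; lines are single positions and H3K4me3 bars are as wide as their cluster. The tall orange and green Pol II lines on the left, up to 387 at 2 h and 374 at 4 h, have no counterpart at 0 h, and both H3K27me3 rows are empty.

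The stretch listed after stimulation lay between the Pol II positions of untreated cells at 83325481 and 83376883, which are 51.4 kb apart. Inside it, Pol II had 0 positions before stimulation, 19 at 2 h and 20 at 4 h. The 2 h positions spanned 27.8 kb and the 4 h positions 31.9 kb. Its tallest part was the bin 83340000 to 83349999, with 8 positions at 2 h and 8 at 4 h.

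In that bin the 6 tallest positions at 2 h were 83340102 (227), 83341870 (237), 83343616 (368), 83344351 (347), 83345692 (326) and 83346578 (387). At 4 h the corresponding positions were 83340054 (143), 83341851 (192), 83343728 (362), 83344371 (328), 83345685 (324) and 83346597 (374). Position 83346578 was number 16 in height among the 57200 Pol II positions at 2 h, and 83346597 was number 13 among 57513 at 4 h. All 6 were lower at 4 h than at 2 h as deposited, the first pair of them by more than the other 4, while the tallest position of a bin had a median ratio of 0.948 between these times over the series. The bin before it, 83330000 to 83339999, held no position at 0 or 2 h and 4 at 4 h, the tallest 89.

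The next bins held lower Pol II. In 83350000 to 83359999 there were 7 positions at 2 h, the tallest 80, and 5 at 4 h, the tallest 65. In 83360000 to 83369999 there were 4 at 2 h, the tallest 51, and 3 at 4 h, the tallest 55. Heights thus dropped away from the 83340000 bin on this side at both times.

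Tall Pol II positions with no 0 h position under 500 bp away were uncommon in the series. Of the 1001 positions at 2 h with a height of at least 200, 129 (12.9%) had none, and 63 (6.29%) were over 10 kb from any 0 h position. The Ccl5 window held 6 of these 63, all in the stretch just described, and 23 of the 63 lay on chromosome ends where the 0 h list stops early. At 4 h, 77 of 679 (11.3%) had none under 500 bp away, and 39 (5.74%) were over 10 kb away, 4 of these in this window and 17 on such ends. These are neighbouring positions of 1 locus and not separate sites.

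H3K4me3 and Jmjd3 lay on the same stretch. The cluster of 4 h that was not listed at 0 h covered 5592 bp and had a height of 134, number 8311 of 19631 in its list. It held 5 Pol II positions at 2 h, from 237 to 387, and 5 at 4 h, from 192 to 374. Of the clusters in the 4 h list, 5.07% had none at 0 h, and over the windows it was 1 of 10. That 1 is the cluster known when the windows were chosen, so no conclusion is drawn from this share. The stretch also held low H3K4me3 before stimulation, under Pol II that was listed only afterwards. The cluster starting at 83350287 had a height of 21 at 0 h, and the one overlapping it at 4 h had 12. The cluster starting at 83365562 had 16 at 0 h and 12 at 4 h.

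Jmjd3 had 11 positions in the stretch, spanning 16.5 kb. Within the H3K4me3 cluster not listed at 0 h they were 83343383 (height 12), 83344624 (10), 83345891 (26) and 83346589 (30). Position 83346589 was number 131 of the 4398 Jmjd3 positions, and it lay 11 bp from the tallest Pol II position at 2 h. The other 7 had heights of 9 to 13 and lay past the end of the cluster at 83346967. Of the 11 positions, 9 were under 500 bp from Pol II at 2 h, and none was under 17014 bp from Pol II at 0 h. No H3K27me3 position was listed in this window at 0 or at 4 h, and the nearest one to these Jmjd3 positions was 64364 bp away.

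The stretch with Pol II of untreated cells alone lay in the middle of the window. In the bin 83400000 to 83409999, Pol II at 0 h had 6 positions with heights of 9 to 38, and the lists of 2 and 4 h had 0. The 3 bins after it, up to 83439999, held 1, 1 and 2 positions at 0 h, the tallest 34, and none at 2 or 4 h. These 4 neighbouring bins form a run, and the tallest position in it was 83409118 with a height of 38. Of 4292 runs of such bins in the series, 75 (1.75%) held at least 4 bins, and the longest held 10.

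H3K4me3 did not vanish with the listed Pol II there. The cluster starting at 83405653 had a height of 69 at 0 h, and the one overlapping it at 4 h had 41. Jmjd3 had no position in these 4 bins.

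Between the 2 stretches stood a group with lower Pol II after stimulation. In the bin 83390000 to 83399999 the tallest position was 137 at 0 h, 106 at 2 h and 122 at 4 h. In the bin before it the values were 105, 66 and 65. The ratios of 2 h to 0 h were 0.774 and 0.629, against the median of 1.56 over all bins, and 87.6% and 93% of bins had a ratio at least as high. This group thus stood lower at 2 h both as deposited and against the list as a whole. Its H3K4me3 cluster had a height of 88 at 0 h and 58 at 4 h, and 1 Jmjd3 position of the lowest height, 9, lay in it at 0 h and outside it at 4 h.

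The tallest Pol II of untreated cells in this window lay in 2 groups farther along. In the bin 83460000 to 83469999, the tallest position was 224 at 0 h, 346 at 2 h and 313 at 4 h. In the bin 83470000 to 83479999 it was 196, 384 and 357, and in the bin 83480000 to 83489999 it was 151, 352 and 304. In each of these 3 bins the height as deposited was lowest at 0 h and highest at 2 h. The ratios of 4 h to 0 h were 1.4, 1.82 and 2.01, or 0.945, 1.23 and 1.36 times the median ratio.

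The ratios of 2 h to 0 h were 1.54, 1.96 and 2.33, or 0.988, 1.25 and 1.49 times the median ratio, so the first of them turns direction with this scaling. Bins that were already tall at 0 h had lower ratios elsewhere: the median was 1.42 (upper quartile 1.77) over 757 bins with a height of 100 or more but under 200, and 1.13 (upper quartile 1.29) over 94 bins from 200 up. Each of the 3 ratios lay above the upper quartile of its height class, while 51.2%, 35.5% and 25% of all bins had ratios at least as high. The heights at 2 h were close to the greatest in that list, 402, and 37 of its positions reached 90% of that value. Whether heights near the top of a list are held down was not tested.

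These 2 groups were marked before stimulation. H3K4me3 clusters over them had heights of 128 and 141 at 0 h and 102 and 123 at 4 h, numbers 8560 and 7959 of 21418 at 0 h. Jmjd3 had 3 positions in the first cluster, with heights of 15, 12 and 17, and 5 in the second as it stood at 4 h, with 36, 16, 17, 12 and 9. The position of height 36, at 83478868, was the tallest Jmjd3 position of both windows and number 82 of its list. It lay 3 bp from Pol II at 0 h, 11 bp from it at 2 h and 6 bp at 4 h.

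A last group near the end of the window was low in untreated cells. In the bin 83520000 to 83529999 the tallest Pol II position was 17 before stimulation, 104 at 2 h and 65 at 4 h. The ratio of 2 h to 0 h was 6.12, and 1.89% of bins in the series had one at least as high. The H3K4me3 cluster there had a height of 35 at 0 h and 86 at 4 h. That ratio of 2.46 was at or above 99.8% of the 17651 paired clusters, and 2 Jmjd3 positions of height 9 lay in the cluster. This was the group of the window in which Pol II and H3K4me3 were both listed at 0 h and were both taller at 4 h. The gene order alone does not say whether it belongs to a member.

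**Figure D2:**
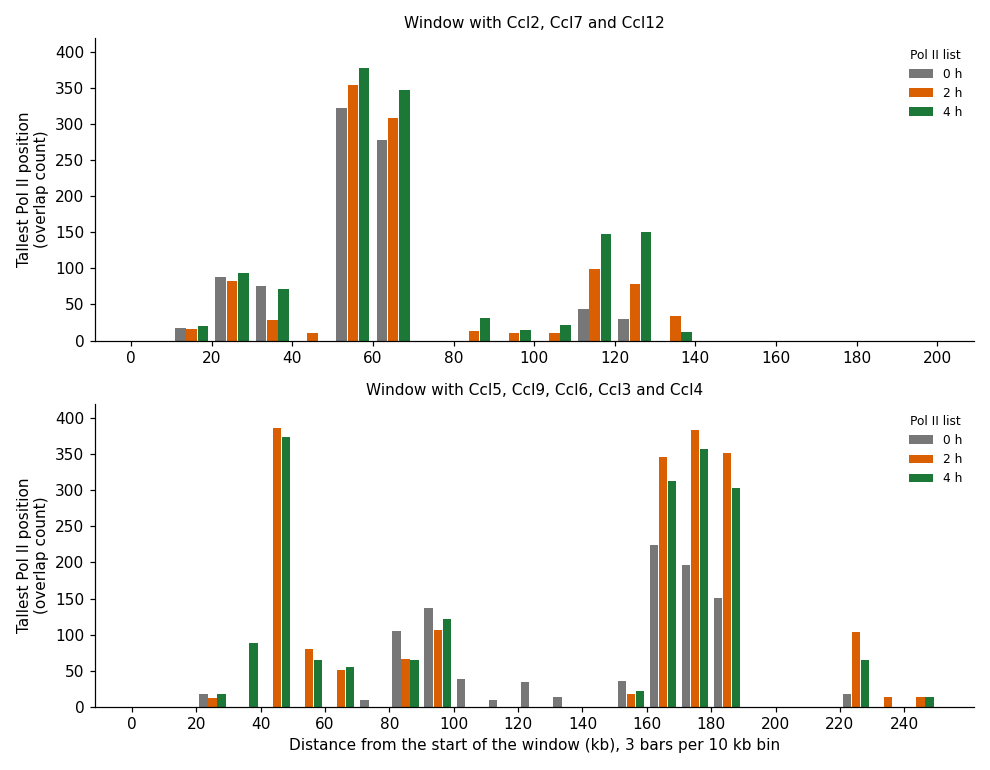
Height (overlap count) of the tallest Pol II position in each 10 kb bin of the Ccl2 window (top) and the Ccl5 window (bottom), against distance from the start of the window; the 3 bars of a bin are 0, 2 and 4 h, and a missing bar means that no position was listed. In the Ccl2 window the 2 tallest bins are tall at all times (323, 355 and 378 in the first), while in the Ccl5 window the bin with 387 at 2 h has no bar at 0 h.

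The window with Ccl2, Ccl7 and Ccl12 held 22 Pol II positions at 0 h, 22 at 2 h and 29 at 4 h. Heights ran from 9 to 323 at 0 h (median 54), from 10 to 355 at 2 h (median 26) and from 11 to 378 at 4 h (median 34). Here the tallest Pol II was present before stimulation. Position 81851841, with a height of 323 at 0 h, was number 3 of the 55600 Pol II positions of untreated cells.

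The first tall group lay in the bin 81850000 to 81859999. At 0 h its 4 tall positions were 81851841 (323), 81852936 (240), 81853826 (258) and 81854480 (257). At 2 h, 3 tall positions were listed, 81851848 (355), 81852747 (267) and 81853830 (240), and at 4 h 81851840 (378), 81852707 (307) and 81853836 (336). The second group, in the next bin, had 278, 204 and 232 at 0 h, 309, 217 and 261 at 2 h and 347, 299 and 339 at 4 h. Both groups were thus tall in all 3 lists. The tallest positions were lowest at 0 h and highest at 4 h as deposited.

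The ratios of the tallest position were 1.10 and 1.11 at 2 h and 1.17 and 1.25 at 4 h over 0 h. Against the medians of 1.56 and 1.48 they were 0.703, 0.711, 0.792 and 0.844, so the direction of the difference turns with the scaling. For bins with a height of 200 or more at 0 h the medians were 1.13 at 2 h and 1.24 at 4 h, and these 2 bins stood near them.

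**Figure D3:**
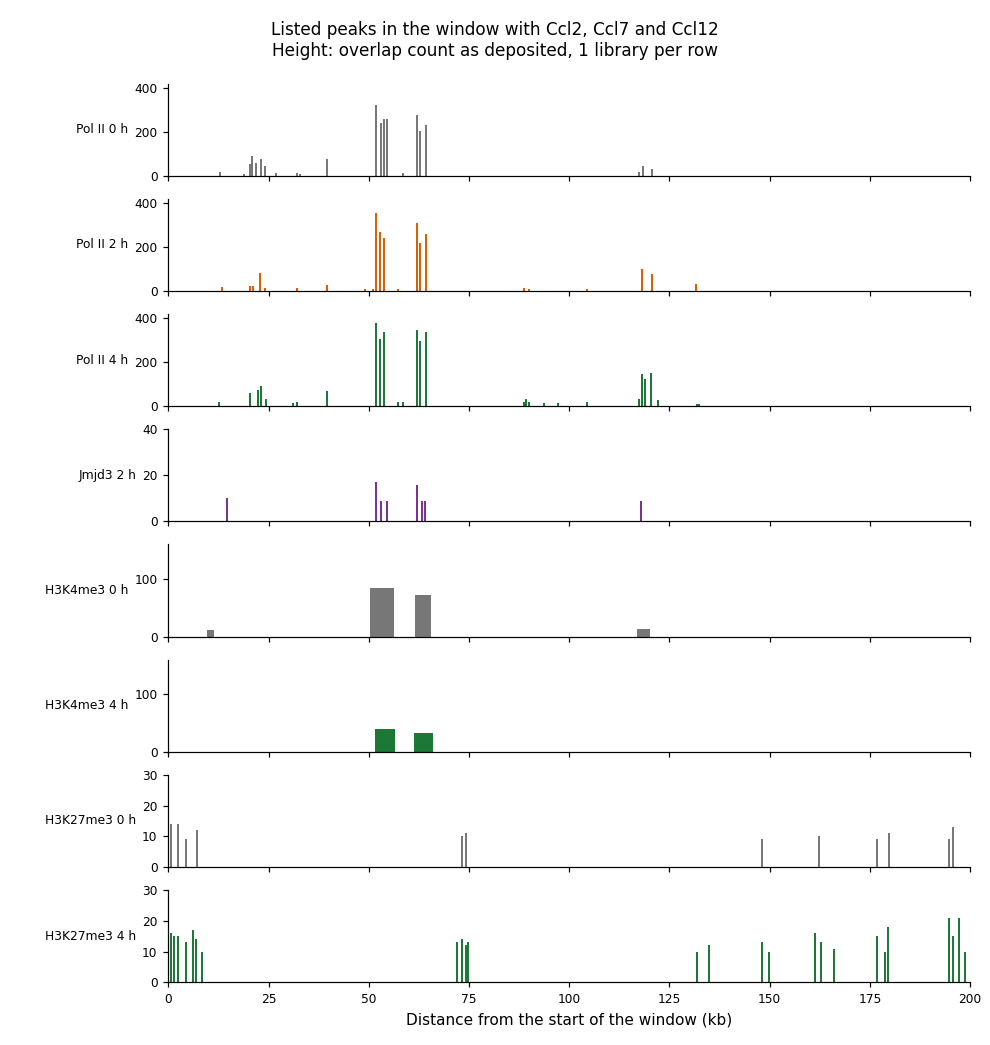
Height (overlap count as deposited, vertical axis) of every listed peak against distance in kb from the start of the Ccl2 window, drawn as for the Ccl5 window. The 2 tall Pol II groups are present at 0, 2 and 4 h, the H3K4me3 clusters over them have heights of 84 and 73 at 0 h and 40 and 33 at 4 h, and the H3K27me3 positions, at most 21 high, lie away from both.

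H3K4me3 over the same 2 groups was lower at 4 h. The first cluster had a height of 84 at 0 h and 40 at 4 h, and the second 73 at 0 h and 33 at 4 h. The ratios were 0.476 and 0.452, at or below which lay 1.79% and 1.41% of the 17651 paired clusters, whose median ratio was 0.996. For pairs of height 25 to 99 at 0 h the median was 0.897, with quartiles of 0.706 and 1.09. Cluster widths were 6007 and 4041 bp at 0 h and 4930 and 4910 bp at 4 h, so the first was narrower and the second wider at 4 h. As deposited, Pol II was higher and H3K4me3 lower at 4 h over these 2 groups. Divided by the median ratio of all bins Pol II was lower too. Its ratios of 1.17 and 1.25 were near the median of 1.24 for bins as tall at 0 h, so its direction depends on the reference.

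Lower H3K4me3 was common among the pairs of both windows. Of 9 paired clusters, 5 were at least 1.5 times lower at 4 h, against 9.23% of pairs in the series, and 1 was at least 1.5 times higher, against 2.42%. Their median ratio was 0.659. Most of these 9 pairs had 0 h heights under 100. In the series such pairs had median ratios of 0.95 (heights 9 to 24) and 0.897 (25 to 99). The shares were not matched for height. The pairs share 2 libraries and neighbouring positions, so they are not 9 independent cases. The 3 clusters of 0 h with none at 4 h, of 12 in the windows against 13.1% in the series, were low, with heights of 11, 14 and 19.

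**Figure D4:**
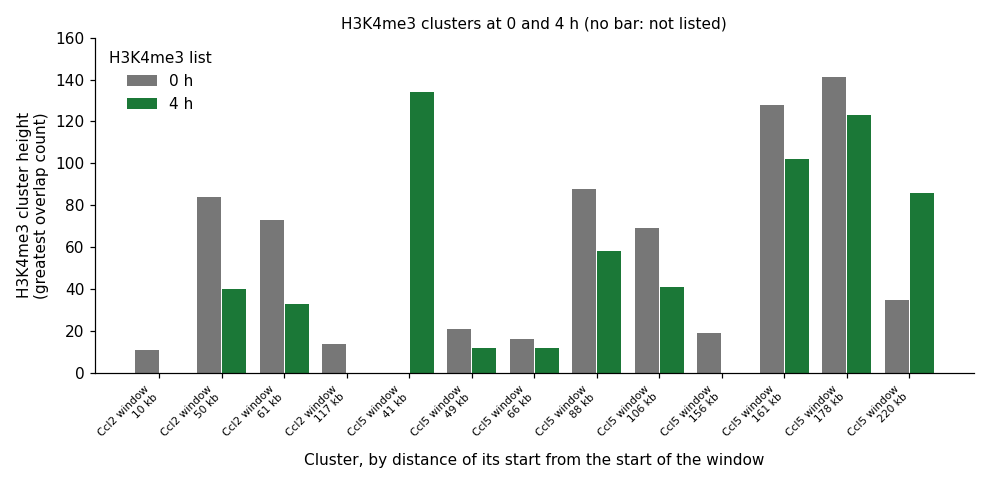
Height of each H3K4me3 cluster (greatest overlap count) at 0 h (grey) and 4 h (green), by window and distance of its start from the window's start; a missing bar means that no cluster was listed. The cluster of height 134 at 4 h has no grey bar, and the pairs of 84 and 40 and of 73 and 33 are those over the tall Pol II groups of the Ccl2 window.

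The Pol II group farther along this window was low at 0 h and taller later. In the bin 81910000 to 81919999 the tallest position was 43 at 0 h, 99 at 2 h and 148 at 4 h, and in the next bin it was 30, 78 and 151. The ratios of 4 h to 0 h were 3.44 and 5.03, and 5.73% and 1.88% of bins had ratios at least as high. From 2 to 4 h the ratios were 1.49 and 1.94, where the median over bins was 0.948. Unlike the tall groups of the Ccl5 window, whose heights were greatest at 2 h, this group was tallest at 4 h. An H3K4me3 cluster of height 14 lay there at 0 h, none was listed at 4 h, and 1 Jmjd3 position of height 9 was listed.

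Between the start of the window and the first tall group, Pol II was lower. In the bin 81820000 to 81829999 the tallest position was 88 at 0 h, 82 at 2 h and 94 at 4 h, and in the bin after it 75, 28 and 71. The 2 h value of 28 gave a ratio of 0.373, and 98.5% of bins had one at least as high. From 2 to 4 h the ratio there was 2.54, which 1.76% of bins reached. The 4 h over 0 h ratio was 0.947, or 0.64 times the median, and 82% of bins had one at least as high.

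Low Pol II positions appeared between the groups after stimulation. The bins from 81880000 to 81909999 and the bin 81930000 to 81939999 had none at 0 h, and their tallest positions were 11 to 34 at 2 h and 12 to 31 at 4 h. These 4 bins and 4 of the Ccl5 window had Pol II at 2 and 4 h and not at 0 h, out of 31 bins of the windows with any Pol II. Of 32419 such bins in the series, 11.2% had this pattern (9.98% without the chromosome ends where the 0 h list stops early). Pol II at all 3 times was listed in 15 of the 31 bins, against 50.1%, in untreated cells alone in 5 against 16.3%, at 2 h alone in 2 against 7.94%, and at 4 h alone in 1 against 4.68%. No bin had Pol II at 0 and 2 h without 4 h, against 4.27%, or at 0 and 4 h without 2 h, against 5.42%. At least 5 positions at each of 2 and 4 h with none at 0 h were found in 2 of the 31 bins, against 1.48%. Both belong to the Ccl5 stretch, part of which was known when the windows were chosen, so no conclusion is drawn from this share. Bins of the windows with Pol II at 2 and 4 h and not at 0 h thus had tallest positions from 11 to 387 at 2 h. The lowest height of that list was 10 and its median 17.

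Across the 15 bins of both windows with Pol II at 0 and 2 h, 6 had a tallest position at least 1.5 times higher at 2 h, against 53.3% of bins in the series, and 4 at least 1.5 times lower, against 8.39%. Divided by the median ratio, 2 were higher, against 24.5% after the same division, and 7 lower, against 24.8%. For 4 h over 0 h, 5 of 15 were higher, against 49.5%, and 2 lower, against 6.34%, or 3 and 5 after division by the median, against 20.1% and 19.2%. From 2 to 4 h, 4 of 23 bins were higher, against 12.3%, and 2 lower, against 15.7%. The bins that were higher at 2 h by both scalings were 81920000 to 81929999 and 83520000 to 83529999.

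Newly listed and lost positions of each window were counted beside the series. In the Ccl5 window 32 of 52 Pol II positions at 2 h (61.5%, exact 95% interval 47 to 74.7) had no 0 h position under 500 bp away, and in the Ccl2 window 7 of 22 (31.8%, 13.9 to 54.9), against 49.6% in the series. At 4 h these were 27 of 48 (56.2%, 41.2 to 70.5) and 13 of 29 (44.8%, 26.4 to 64.3), against 45.2%. Of those in the Ccl5 window, 19 at 2 h and 20 at 4 h lay in the stretch listed after stimulation. Part of that stretch was known when the windows were chosen, so no conclusion is drawn from the Ccl5 shares of newly listed positions. Of the 0 h positions, 17 of 37 in the Ccl5 window and 7 of 22 in the Ccl2 window had none at 2 h, against 48.2%. By 4 h, 17 of 37 and 6 of 22 had none, against 43.4%. At 2 h the newly listed positions of the Ccl2 window reached 34 and those of the Ccl5 window 387. Intervals cover counting error only, and neighbouring positions are not independent.

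Between 2 and 4 h few positions were newly listed in the Ccl5 window. There, 5 of 48 positions at 4 h (10.4%, 3.47 to 22.7) had none at 2 h under 500 bp away, against 32.3% in the series, and in the Ccl2 window 11 of 29 did (37.9%, 20.7 to 57.7). Of the 2 h positions, 10 of 52 (19.2%, 9.63 to 32.5) and 4 of 22 (18.2%, 5.19 to 40.3) had none at 4 h, against 32% in the series. The difference between the windows was not tested. In the series, 4 h positions newly listed since 2 h had a median height of 14 and the others 26. All 4 h positions of the Ccl5 window had a median of 42.5, and the shares were not matched for height.

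Jmjd3 in the Ccl2 window had 8 positions, with heights of 9 to 17. The tallest were 81851827 (17) and 81861983 (16), which lay 14 and 1 bp from Pol II at 0 h, 21 and 31 bp from it at 2 h and 13 and 25 bp at 4 h. Each of the 2 tall Pol II groups had 3 Jmjd3 positions in its H3K4me3 cluster. The other positions in these clusters had the lowest height, 9. The 2 positions outside the tall groups, 81814568 (10) and 81917841 (9), were about as low.

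The Pol II that Jmjd3 met was counted by window, and the difference between the windows was not tested. In the Ccl5 window 11 of 22 Jmjd3 positions were under 500 bp from Pol II at 2 h and not at 0 h. In the Ccl2 window 0 of 8 were, and in the series 17.3%. The exact intervals were 28.2% to 71.8% and 0% to 36.9%, and they do not compare the windows. All of these 11 except 83388610 and 83464794 lay in the stretch listed after stimulation, part of which was known when the windows were chosen. Those in the stretch are neighbouring positions and not independent cases, and they also enter the other Ccl5 counts that follow. Pol II at 0 h was near 7 of 22 and 7 of 8, against 67% in the series, and Pol II at 2 h near 18 of 22 and 6 of 8, against 80.7%. Pol II at 4 h was near 15 of 22 and 6 of 8, against 78.6%. Jmjd3 lay in an H3K4me3 cluster of 0 h at 10 of 22 and 7 of 8 positions, against 82.8%, and in one of 4 h at 14 of 22 and 6 of 8, against 83.8%. None of the 30 Jmjd3 positions was under 500 bp from H3K27me3 at 0 or 4 h, against 12% and 11% in the series.

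Jmjd3 positions stood close together. Of the H3K4me3 clusters in the windows, 7 of 12 at 0 h and 6 of 10 at 4 h held Jmjd3, against 13.6% and 14.7% in the series. Over both windows, 5 of 10 H3K4me3 clusters of 4 h held at least 3 of them, against 0.795% of clusters in the series. Those 5 are the cluster not listed at 0 h, the 2 over the tall Pol II groups farther along the Ccl5 window and the 2 over the tall groups of the Ccl2 window. They were 4910 to 6830 bp wide at 4 h, where the median of that list was 2870 bp. The shares were not matched for width. The windows made up 0.682% of the Jmjd3 list and 0.129% of the Pol II list of 2 h.

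H3K27me3 was listed in the Ccl2 window and not in the Ccl5 window, with 12 positions at 0 h and 25 at 4 h. Heights were 9 to 14 at 0 h (median 10.5) and 10 to 21 at 4 h (median 13). Whole-list medians were near these, at 12 and 13, and the greatest heights of those lists were 397 and 401. Of the 4 h positions, 14 of 25 had no 0 h position under 500 bp away, against 51.7% in the series, and 1 of the 12 at 0 h had none at 4 h, against 28.3%. The list of 4 h is longer than that of 0 h throughout the genome, 89093 against 59684.

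H3K27me3 lay in 6 of its 20 bins at 0 h and in 7 at 4 h, at the start of the window, between the second tall Pol II group and the later one, and from the last Pol II bin to the end. In the bin 81870000 to 81879999 it had 2 positions at 0 h and 4 at 4 h. Of the 6 bins at 0 h none held Pol II at any time, against 14.7% of such bins in the series, and of the 7 at 4 h 1 did, against 12.1%, so these counts are near the series. That bin, 81930000 to 81939999, had no H3K27me3 position at 0 h and 2 at 4 h, with heights of 10 and 12, and the H3K27me3 position at 81931747 lay 11 bp from Pol II at 4 h.

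Bins with Pol II at 2 and 4 h and none at 0 h were ordered by number of positions, without regard to height. Tall newly listed Pol II elsewhere was therefore not compared with the Ccl5 stretch. The first bins of that order were lower than the stretch. They were chr2:68750000-68759999, chr11:109190000-109199999 and chr2:166380000-166389999, with 22, 21 and 21 positions over both times. Their tallest positions were 37, 39 and 26 at 2 h, and none held Jmjd3. The bin 83340000 to 83349999 was number 103 in that order of 3645 bins, with 16 positions, a tallest of 387 and 6 of Jmjd3.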

How the data were processed

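Peak lists were used as deposited, 1 per library, and each library's group came from its labelled antibody and hour. The deposited signal is a whole number of overlapping fragments that the authors gave at each single position (Pol II, H3K27me3, Jmjd3) or cluster (H3K4me3), per the file headers. The build is mm8, per the submitters' processing notes. Which aligner and peak caller made the lists, with what threshold and control, is not given in the sources used here. Per the labels, chromatin came from 500000000 cells for Jmjd3 and 100000000 for the others, and fragments were 200 to 300 bp.

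The members, windows and lists were chosen with earlier results of these data known. All positions inside the windows were counted and also grouped in bins of 10 kb. Positions under 500 bp apart, and clusters sharing at least 1 bp, counted as the same. The rule for naming took the 3 tallest positions of each list in each window and the 3 tallest newly listed Pol II positions. It also took Jmjd3 positions, H3K4me3 clusters and the 3 bins elsewhere most like by count of Pol II positions. Other positions were picked after their values were seen. The fold of 1.5, the height of 200 and the counts of 3 Jmjd3 positions, 5 Pol II positions and 4 bins were also set after seeing the data. Paired clusters overlapped 1 partner each way. Shares have exact Clopper-Pearson 95% intervals. Depth per library was unknown beyond over 10000000 tags, and a deeper library lists more low peaks. The Pol II list of 0 h stops over 1 Mb early on 7 chromosomes, not on chromosome 11. Peak lists hold no expression, so the cell type was not checked against markers. Overlap counting was tested on simulated lists. Tools were pandas 2.3.3 and numpy 2.4.6 under Python 3.11.15, scipy 1.17.1 for intervals and matplotlib 3.10.9 for drawing.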

Additional observations from a re-analysis of the deposited data

How the results depend on the processing

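No paired analysis was possible because each group is 1 library. Alternatives were another distance for shared positions (1 kb or 200 bp), other bins, higher lowest counts, lists of equal length, wider windows and another overlap of clusters; wider windows for the shares, and ratios scaled by their median or set at 2 times, were added after seeing the data. With peaks above the median height of their list, the counts of listed peaks were 71 in the Ccl2 window and 115 in the Ccl5 window, Jmjd3 had 14 positions, 100% of them near Pol II at 2 h, and 7.69% of the 2 h Pol II positions of the Ccl2 window were newly listed. Windows widened by 50 kb gave 201 peaks for the Ccl2 window. With positions within 1 kb shared, 13.6% of the 0 h Pol II positions of the Ccl2 window were lost by 2 h and 9.09% by 4 h. Bins with Pol II at both later times and none in untreated cells were 8 with 10 kb bins, 13 with 5 kb bins, 3 with 20 kb bins and 3 where at least 2 positions were asked for at each time. Divided by the median ratio, 2 bins in place of 6 were at least 1.5 times higher at 2 h and 7 in place of 4 at least 1.5 times lower; at 4 h these were 3 in place of 5 and 5 in place of 2. At 2 times, 2 Pol II bins in place of 4 were lower at 2 h and 0 in place of 2 at 4 h. Those higher at 2 times were 4 in place of 6 at 2 h and 4 in place of 5 at 4 h. Of the paired H3K4me3 clusters, 5 were lower at 1.5 times and 2 at 2 times.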
